A study of Mus musculus with 4 samples.

Results

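The genes described here encode the proteins that build, shape and renew mitochondria: the machinery of mitochondrial fusion, fission, transport and mitophagy, the prohibitins, the enzymes that copy and transcribe mitochondrial DNA, the nuclear regulators of mitochondrial biogenesis, and the mitochondrial proteases. They were taken from the deposited table by symbol, from a fixed list of 39 names, and all 39 were found among the 24452 genes listed; 38 of them are described. The samples were regulatory T cells (Tregs, the Foxp3-positive CD4 T cells that restrain immune responses) from the liver of young mice. They came from Altre-KO mice, knockouts of the Treg long non-coding RNA Altre, and from Altre-WT mice, with 2 RNA-sequencing libraries for each genotype. The labels call all of them raw Tregs and name no strain, sex, age in weeks or knockout allele. Nor do they tell whether both libraries of a genotype are separate animals, so p-values measure only the spread between libraries, which may be technical. The question addressed is what the loss of Altre does to the Treg transcriptome at a young age. Genotypes are taken from the labels, as Altre itself was not analysed here.

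Mitochondria form a network that is remodelled by fusion, driven by mitofusins in the outer membrane and Opa1 in the inner one, and by fission, driven by the dynamin-related GTPase Dnm1l that receptors recruit to the outer membrane. Damaged fragments are removed by mitophagy, either through ubiquitin, with the kinase Pink1, or through receptors in the mitochondrial membrane that bind the autophagosome. New mitochondrial mass needs nuclear transcription factors such as Nrf1 and Gabpa, which act on genes for the respiratory chain and for the mitochondrial DNA machinery. Tregs are known to rely on mitochondrial respiration more than conventional effector T cells do.

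Reads on listed genes were estimated at 3266133 and 2361930 in the Altre-KO libraries and at 1828773 and 2378955 in the Altre-WT libraries. These were 32.8% and 21.5% of all reads in Altre-KO replicates 1 and 2 and 18.8% and 20.6% in Altre-WT replicates 1 and 2, so that Altre-KO replicate 1 stood apart. The widest 95% Wilson interval of these shares ran from 32.76% to 32.81%, which covers counting error only. Genes with a value above 0 numbered 14970 and 15818 in Altre-KO replicates 1 and 2 and 16153 and 16668 in Altre-WT replicates 1 and 2. Both Altre-KO libraries thus held fewer genes, and the bearing of this on low genes was not tested. Treg and CD4 T cell markers summed to between 3107 and 3197 CPM (reads of a gene relative to all reads on listed genes, on a common scale) in the 4 libraries. The largest part of the sum was Ikzf2, at between 1226 and 1272 CPM. Foxp3 was at 79.5 and 162 CPM in Altre-KO and at 160.4 and 140.4 CPM in Altre-WT. Il2ra was at 164.1 and 212.5 CPM in Altre-KO and at 209.4 and 190 CPM in Altre-WT. Cd3e was at 53.89 and 84.25 CPM in Altre-KO and at 90.77 and 68.52 CPM in Altre-WT. Foxp3, Il2ra and Cd3e were thus lowest in Altre-KO replicate 1, as was Ikzf2, at 1226 CPM. Cd3g was highest there, at 659.2 CPM, and Ctla4 and Cd4 lay within the range of the other libraries. Markers of myeloid and Kupffer cells summed to 273 and 147 CPM in Altre-KO and to 178 and 275 CPM in Altre-WT, with Vsig4 and Marco at 0 throughout. B and plasma cell markers summed to 198 and 169 CPM in Altre-KO and to 144 and 279.9 CPM in Altre-WT, mostly Jchain. Those of endothelial and stellate cells summed to 177 and 213.8 CPM in Altre-KO and to 190.8 and 221.9 CPM in Altre-WT, mostly Pecam1. The 7 hepatocyte markers summed to at most 1.69 CPM, CD8 and NK cell markers to at most 23.52 CPM and erythroid markers to at most 14.36 CPM. The part these levels play in the values below was not tested.

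The motifs of 3 regulators in the list (Nrf1, Gabpa and Esrra) and of YY1 were looked for in the promoters of the genes themselves. RefSeq sequences (GRCm38.p6, 250 bases before to 50 after the transcription start) were at hand for 34 of the 38 genes. All motifs were searched on both strands. The palindromic consensus of NRF1, whose matches stand in capitals below, lay in a promoter of 7 of the 34, which were Bnip3, Oma1, Opa1, Phb, Pink1, Polrmt and Spg7 (20.6%). Over all genes with a promoter sequence the share was 5.19%. Among genes that passed the low-value filter described below the shares lay closer, at 21.2% of 33 listed genes against 12.8% of 8260 in all. The GABPA motif, CCGGAAGT, lay in a promoter of 8, which were Fis1, Mfn1, Mief1, Phb2, Polg, Sirt3, Tfam and Usp30 (23.5%, against 4.31% of all genes). Among genes past the filter this was 24.2% against 10.5%. The ESRRA motif, TCAAGGTCA, was in none of the 34 (0.466% of all genes), and the YY1 motif in Gabpa alone (0.995% of all genes). A match of letters is not a measured binding site.

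The promoters of 6 genes are shown 5′ to 3′ on the strand of the gene, with NRF1 or GABPA motif matches in capitals. The first 4 belong to the genes that the rule below selects for their differences between genotypes, and Tfam and Phb2 show the GABPA motif, once in Tfam and 3 times in Phb2.
Pink1, chr4:138326247-138326546, minus strand: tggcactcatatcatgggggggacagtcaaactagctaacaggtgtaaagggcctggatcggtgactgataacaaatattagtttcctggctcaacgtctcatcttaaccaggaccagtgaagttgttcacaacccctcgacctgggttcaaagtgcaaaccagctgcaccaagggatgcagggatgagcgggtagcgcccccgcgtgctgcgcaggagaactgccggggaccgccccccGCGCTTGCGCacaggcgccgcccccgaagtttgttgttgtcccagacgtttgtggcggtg
Mief2, chr11:60728148-60728447, plus strand: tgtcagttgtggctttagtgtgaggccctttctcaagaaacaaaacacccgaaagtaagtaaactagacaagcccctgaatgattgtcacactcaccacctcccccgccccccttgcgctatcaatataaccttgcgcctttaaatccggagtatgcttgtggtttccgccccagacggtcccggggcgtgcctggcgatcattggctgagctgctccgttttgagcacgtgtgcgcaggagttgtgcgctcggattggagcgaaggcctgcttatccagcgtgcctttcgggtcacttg
Tfb2m, chr1:179546227-179546526, minus strand: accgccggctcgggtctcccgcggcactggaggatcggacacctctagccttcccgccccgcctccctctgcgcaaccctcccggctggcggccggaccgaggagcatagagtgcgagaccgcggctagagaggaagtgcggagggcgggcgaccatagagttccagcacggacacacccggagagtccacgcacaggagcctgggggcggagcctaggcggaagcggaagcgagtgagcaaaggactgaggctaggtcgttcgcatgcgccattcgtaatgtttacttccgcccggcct
Bnip3, chr7:138909457-138909756, minus strand: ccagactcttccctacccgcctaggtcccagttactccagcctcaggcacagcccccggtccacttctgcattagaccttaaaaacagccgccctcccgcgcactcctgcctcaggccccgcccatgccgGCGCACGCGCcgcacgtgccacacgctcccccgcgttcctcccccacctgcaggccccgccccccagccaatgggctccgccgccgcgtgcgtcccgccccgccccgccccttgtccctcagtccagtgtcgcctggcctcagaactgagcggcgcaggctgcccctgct
Tfam, chr10:71237995-71238294, minus strand: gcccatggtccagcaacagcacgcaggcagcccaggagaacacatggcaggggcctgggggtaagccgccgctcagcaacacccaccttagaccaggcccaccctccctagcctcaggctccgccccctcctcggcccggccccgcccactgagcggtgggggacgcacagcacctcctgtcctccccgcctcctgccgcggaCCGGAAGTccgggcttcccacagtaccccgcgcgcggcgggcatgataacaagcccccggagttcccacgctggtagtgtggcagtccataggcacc
Phb2, chr6:124712039-124712338, plus strand: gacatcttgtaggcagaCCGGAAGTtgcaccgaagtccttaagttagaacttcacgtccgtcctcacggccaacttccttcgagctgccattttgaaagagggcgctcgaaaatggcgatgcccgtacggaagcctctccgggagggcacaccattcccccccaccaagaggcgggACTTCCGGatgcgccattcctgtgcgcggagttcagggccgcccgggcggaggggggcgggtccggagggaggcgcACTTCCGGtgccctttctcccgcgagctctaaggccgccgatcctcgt

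The NRF1 match of Pink1 ended directly before the RefSeq start, and that of Bnip3 began at position -120 from it. The promoters of Mief2 and Tfb2m held no match to any of the 4 motifs in this window.

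Among these genes, none passed the test between genotypes. With 2 libraries per genotype, this does not show that the levels are equal in Altre-KO and Altre-WT Tregs. Of the 38, 37 passed the low-value filter, which asked for at least 4.22 CPM in at least 2 libraries. None of the 37 passed an adjusted p of 0.05 in limma over the 10486 genes tested, where 0.0381% of all genes passed, and limma-voom on estimated reads also called 0. At an unadjusted p under 0.05 stood 1 of the 37, Pink1, higher in Altre-KO (2.7%, against 3.66% of all tested genes, 1.44% higher and 2.22% lower). With limma-voom the number under this unadjusted p was also 1. The authors' deposited table put 0 of the 38 under an adjusted p of 0.05 and 0 under an unadjusted one. In bulk samples such as these, fewer cells of a type and less RNA per cell cannot be told apart.

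The log2 fold changes, given throughout as Altre-KO minus Altre-WT on the log2(CPM + 1) scale, ran from -0.42 for Afg3l2 to 0.60 for Tfb2m. Their median was 0.046, against -0.013 over all tested genes, and the median size regardless of sign was 0.12, against 0.17. The tested members had a median level of 48.3 CPM and all tested genes of 39.4 CPM. A log2 fold change of at least 0.3 in either direction was found for 6 of the 37 (16.2%, against 28.5% of all tested genes). For 19 of the 37 the 95% interval lay wholly inside a 1.5-fold change in either direction, which held for 31.3% of all tested genes, and for 31 it lay inside a 2-fold change (69.5% of all). The direction leaned to Altre-KO: 27 of the 37 had a log2 fold change above 0 (73.0%, against 47.9% of all tested genes). Without each library in turn this count was between 20 and 26.

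**Figure D1:**
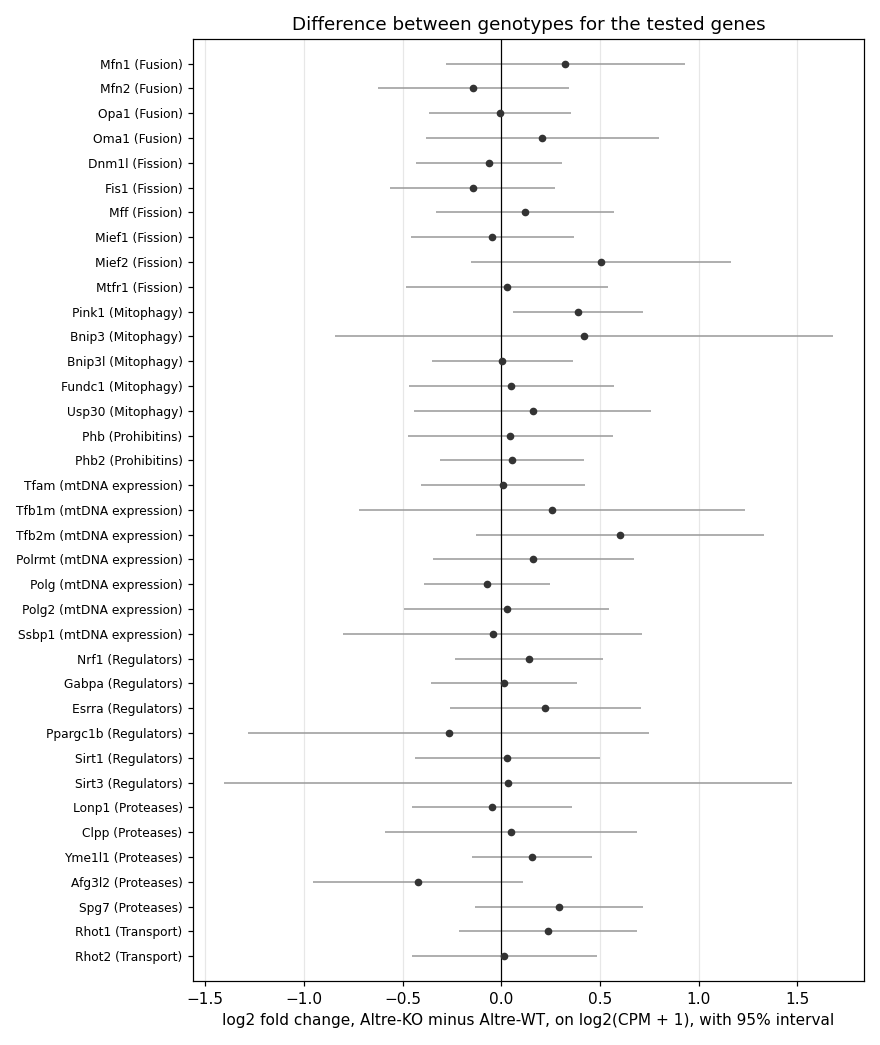
Log2 fold change of each of the 37 tested genes (x axis, Altre-KO minus Altre-WT on log2(CPM + 1)), with its 95% limma interval as a bar, in order of role from top to bottom. All intervals but that of Pink1 (0.057 to 0.72) include 0.

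The genotypes did not overlap for 9 of the 37 genes, with both Altre-KO values on the same side of both Altre-WT values (24.3%, against 30.8% of all tested genes). Of these, 8 were higher in Altre-KO (21.6%, against 14.7% of all) and 1, Polg, was lower (16.1% of all). The 8 were Pink1, Mief2, Tfb2m, Bnip3, Oma1, Spg7, Esrra and Yme1l1. By a rule that asked for an unadjusted p under 0.05, or for no overlap with a log2 fold change of at least 0.3 in size, 4 genes were taken for full description: Pink1, Mief2, Tfb2m and Bnip3.

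**Figure D2:**
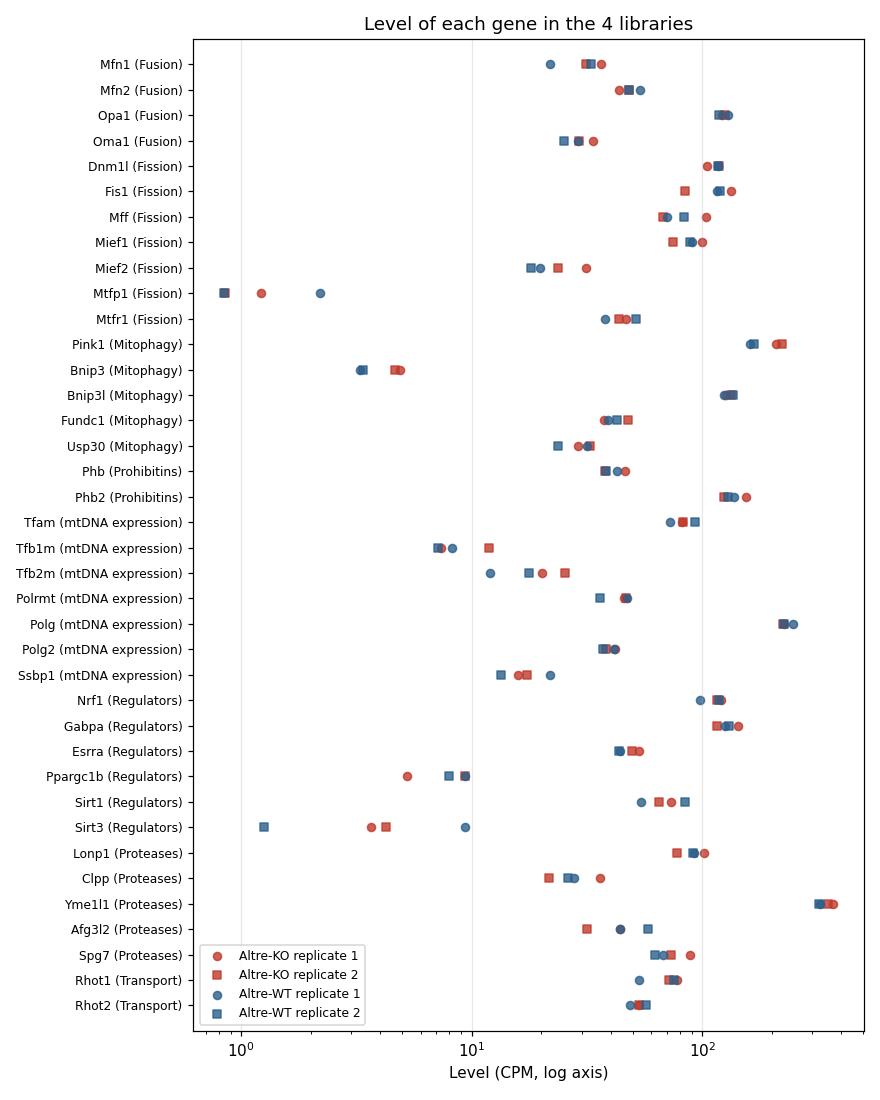
Level of each of the 38 genes in CPM on a log axis, with Altre-KO libraries in red and Altre-WT libraries in blue, replicate 1 as circles and replicate 2 as squares. Red and blue points lie close together on most lines and are apart for Bnip3, Pink1 and Mief2, among others.

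Pink1, the kinase that builds up on depolarised mitochondria and marks them for removal, was at 208.5 and 223 CPM in Altre-KO and at 161 and 168 CPM in Altre-WT. Its means were 215.6 ± 10.04 CPM in Altre-KO and 164.5 ± 4.53 CPM in Altre-WT (SD, n = 2 each). Both Altre-KO libraries lay above both Altre-WT libraries, by more than the gap within either genotype. The log2 fold change was 0.39 (SE 0.16), a level 1.31-fold that of Altre-WT, with an unadjusted p of 0.0236 and an adjusted p of 0.999 in limma. It ranked 166th by p among the tested genes. The gene lies on chromosome 4 (138313409 to 138326307, minus strand, GRCm38) and rested on between 295 and 681 estimated reads in a library. Usp30, a deubiquitinase of the outer membrane that removes ubiquitin chains from mitochondria, was at 28.8 and 32.6 CPM in Altre-KO and at 31.7 and 23.5 CPM in Altre-WT, with overlapping genotypes.

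The membrane receptors of mitophagy differed widely in level, and none passed the test between genotypes. Bnip3l, also called Nix, was at 127 and 133 CPM in Altre-KO and at 124 and 136 CPM in Altre-WT, for a log2 fold change of 0.005 (95% interval -0.35 to 0.36). Its relative Bnip3, a hypoxia-inducible receptor, was at 4.90 and 4.66 CPM in Altre-KO and at 3.28 and 3.36 CPM in Altre-WT. That is 16 and 11 reads in Altre-KO against 6 and 8 in Altre-WT, with a log2 fold change of 0.42 (SE 0.61, limma adjusted p = 0.999) and an interval from -0.84 to 1.68. Although the 4 values of Bnip3 did not overlap, so few reads leave a wide range of possible differences. An opposite-strand gene, Gm45507, covers 22.2% of its exonic bases, and pseudogenes match its transcript at up to 98.9%. Fundc1, another receptor, was at 37.3 and 47.4 CPM in Altre-KO and at 38.8 and 42.5 CPM in Altre-WT. For the 5 tested mitophagy genes together, all 5 log2 fold changes were above 0, against 47.9% of all tested genes, with a median of 0.16. The number above 0 was 3 without Altre-KO replicate 2, with a median of 0.072, and 3 without Altre-WT replicate 1, with a median of 0.36.

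Of the fission genes, Mief2, a receptor that recruits Dnm1l to the outer membrane, showed the clearest separation, at 31.2 and 23.7 CPM in Altre-KO and at 19.7 and 18.1 CPM in Altre-WT. Mean levels were 27.5 ± 5.32 CPM in Altre-KO and 18.9 ± 1.14 CPM in Altre-WT (SD, n = 2 each). The log2 fold change was 0.51 (SE 0.32), with an unadjusted p of 0.125 and an adjusted p of 0.999 in limma. The gene lies on chromosome 11 (60728398 to 60732951, plus strand, GRCm38). Its paralog Mief1 was at 100.1 and 74.9 CPM in Altre-KO and at 90.2 and 88.7 CPM in Altre-WT, so its Altre-KO libraries lay on either side of the Altre-WT ones. The same was true of Fis1, an outer-membrane adaptor, at 133 and 84.2 CPM in Altre-KO and at 115 and 119 CPM in Altre-WT. Mff, the main Dnm1l receptor of many cells, was at 103 and 67.3 CPM in Altre-KO and at 70.5 and 83.7 CPM in Altre-WT. Dnm1l itself was at 105 and 118 CPM in Altre-KO and at 116 CPM in both Altre-WT libraries, a log2 fold change of -0.064 (95% interval -0.43 to 0.30). Mtfr1, a fission regulator, was at 46.5 and 43.6 CPM in Altre-KO and at 37.7 and 51.7 CPM in Altre-WT. Mtfp1, an inner-membrane fission protein, lay between 0.84 and 2.19 CPM on at most 4 reads and was not tested. The 6 tested fission genes split evenly, 3 above and 3 below 0, with a median of -0.009, and between 1 and 5 were above 0 with a library left out.

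None of the 4 fusion genes passed the test. Opa1, the inner-membrane fusion GTPase, was at 121 and 125 CPM in Altre-KO and at 129 and 119 CPM in Altre-WT, with a log2 fold change of -0.007 (95% interval -0.37 to 0.35). The mitofusin Mfn2 was at 43.5 and 48.3 CPM in Altre-KO and at 53.6 and 47.9 CPM in Altre-WT. Its partner Mfn1 was at 36.4 and 31.3 CPM in Altre-KO and at 21.9 and 32.8 CPM in Altre-WT. The 2 mitofusins thus had log2 fold changes of opposite sign, -0.14 for Mfn2 and 0.32 for Mfn1. Each overlapped between genotypes, and the difference for Mfn1 rested on the low value of Altre-WT replicate 1: without that library it was 0.042. Oma1, the stress-activated protease that cleaves Opa1, was at 33.7 and 29.2 CPM in Altre-KO and at 29.0 and 25.2 CPM in Altre-WT, a log2 fold change of 0.21 (SE 0.29).

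Of the genes for copying and reading mitochondrial DNA, Tfb2m had the largest difference of all 37. This transcription factor, which melts the mitochondrial promoters, was at 20.2 and 25.4 CPM in Altre-KO and at 12.0 and 17.7 CPM in Altre-WT. Mean levels were 22.8 ± 3.67 CPM in Altre-KO and 14.8 ± 3.98 CPM in Altre-WT (SD, n = 2 each). Its log2 fold change was 0.60 (SE 0.35), with an unadjusted p of 0.102 and an adjusted p of 0.999 in limma, and it was 0.34 without Altre-WT replicate 1. The gene lies on chromosome 1 (179528055 to 179546267, minus strand, GRCm38). A pseudogene, Gm1818, matches its transcript at 99.3% over 1187 bases, and how reads shared by this pair were counted is not known. The related Tfb1m, a methyltransferase of mitochondrial ribosomal RNA, was at 7.35 and 11.9 CPM in Altre-KO and at 8.20 and 7.15 CPM in Altre-WT. Tfam, which packages mitochondrial DNA and starts its transcription, was at 82.0 and 82.6 CPM in Altre-KO and at 72.2 and 92.9 CPM in Altre-WT, a log2 fold change of 0.007 (95% interval -0.41 to 0.42). Polrmt, the mitochondrial RNA polymerase, was at 45.9 and 46.6 CPM in Altre-KO and at 47.0 and 36.1 CPM in Altre-WT. The polymerase gene Polg was at 225.2 and 224.8 CPM in Altre-KO and at 248 and 225.2 CPM in Altre-WT, where the genotypes were separated by less than the worth of a single read. Its accessory subunit Polg2 was at 41.9 and 38.1 CPM in Altre-KO and at 41.6 and 37.0 CPM in Altre-WT. Ssbp1, which coats single-stranded mitochondrial DNA, was at 15.9 and 17.4 CPM in Altre-KO and at 21.9 and 13.4 CPM in Altre-WT, the Altre-KO values lying between the Altre-WT ones.

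No nuclear regulator passed. Of the 6 log2 fold changes 5 were above 0, and 3 were without Altre-WT replicate 1 (47.9% of all tested genes were above 0). The transcription factor Nrf1 was at 121 and 116 CPM in Altre-KO and at 97.3 and 118 CPM in Altre-WT (log2 fold change 0.14, 95% interval -0.24 to 0.52). Gabpa, the DNA-binding subunit of an ETS-family factor that activates respiratory genes, was at 143 and 116 CPM in Altre-KO and at 125 and 130.3 CPM in Altre-WT (0.013, interval -0.35 to 0.38). The orphan receptor Esrra was at 53.0 and 49.5 CPM in Altre-KO and at 43.8 and 43.7 CPM in Altre-WT. Its libraries lay close together within each genotype and did not overlap between them, and its log2 fold change was 0.22 (SE 0.23, limma adjusted p = 0.999). The SE in this test is drawn mainly from the spread of all genes of like level (20.8 prior degrees of freedom). The coactivator Ppargc1b was at 5.21 and 9.31 CPM in Altre-KO and at 9.30 and 7.99 CPM in Altre-WT. Its better-known relative Ppargc1a, outside the list, was at 0 and 1.69 CPM in Altre-KO and at 3.83 and 4.20 CPM in Altre-WT, on 0 and 4 reads against 7 and 10, and did not reach the filter. The deacetylase Sirt1 was at 73.2 and 65.2 CPM in Altre-KO and at 54.1 and 84.5 CPM in Altre-WT. Sirt3, its mitochondrial counterpart, was at 3.67 and 4.23 CPM in Altre-KO and at 9.30 and 1.26 CPM in Altre-WT, so the spread within Altre-WT exceeded any difference between genotypes. For both sirtuins the mean CPM was lower in Altre-KO (69.2 against 69.3 for Sirt1, 3.95 against 5.28 for Sirt3), while the log2 fold change lay just above 0 (0.030 and 0.035).

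Members with the NRF1 motif had a median log2 fold change of 0.21, with 6 of 7 above 0, and those with the GABPA motif a median of 0.021, with 5 of 8 above 0. Members with a promoter sequence but none of the 4 motifs had a median of 0.051 (13 of 17 above 0). The 7 carriers of the NRF1 motif include Pink1 and Bnip3. Over all 1056 tested genes with an NRF1 motif the median was -0.003, and over the 6242 with none of the 4 motifs it was -0.016. The median of the 7 was 0.11 without Altre-WT replicate 2, with 4 above 0, and 0.35 without Altre-WT replicate 1, with 7 above 0. That of the 8 GABPA carriers lay between -0.053 and 0.12 with a library left out.

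Proteases of the inner membrane differed in direction. Yme1l1, the inner-membrane protease that faces the intermembrane space and also cleaves Opa1, was the most abundant transcript in CPM, at 369 and 351 CPM in Altre-KO and at 325 and 322 CPM in Altre-WT. Its genotypes did not overlap, with a log2 fold change of 0.15 (SE 0.15, 95% interval -0.15 to 0.46). Afg3l2 and Spg7 encode subunits of the same matrix-facing protease complex. Afg3l2 was at 43.8 and 31.8 CPM in Altre-KO and at 43.7 and 58.0 CPM in Altre-WT, a log2 fold change of -0.42 (SE 0.26, unadjusted p of 0.112 and adjusted p of 0.999 in limma). Spg7 was at 88.2 and 72.8 CPM in Altre-KO and at 67.8 and 62.6 CPM in Altre-WT, a log2 fold change of 0.29 (SE 0.21, unadjusted p of 0.166 and adjusted p of 0.999 in limma). The genotypes overlapped for Afg3l2 and not for Spg7, and the difference between the 2 subunits was not tested. The matrix proteases Lonp1 and Clpp overlapped: Lonp1 was at 101 and 77.5 CPM in Altre-KO and at 92.4 and 90.8 CPM in Altre-WT. Clpp was at 36.1 and 21.6 CPM in Altre-KO and at 27.9 and 26.1 CPM in Altre-WT.

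The prohibitins, which form a ring-shaped scaffold in the inner membrane, overlapped between genotypes. Phb2 was at 154 and 124 CPM in Altre-KO and at 138 and 129 CPM in Altre-WT, and Phb had a log2 fold change of 0.046 next to 0.053 for Phb2. Phb itself was at 46.2 and 37.7 CPM in Altre-KO and at 42.7 and 38.2 CPM in Altre-WT. Transcripts of the Miro GTPases, which tie mitochondria to microtubule motors, overlapped as well. Rhot1 was at 77.8 and 71.5 CPM in Altre-KO and at 53.0 and 75.2 CPM in Altre-WT. Rhot2 was at 53.3 and 53.4 CPM in Altre-KO and at 48.7 and 57.2 CPM in Altre-WT. For Rhot2, 31.2% of the annotated exonic bases are shared with Wdr90 and Gm20683 on the same strand, so its reads cannot be assigned without doubt.

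Levels of different genes were compared per length, as CPM per kb of annotated exon, averaged over the 4 libraries. Pink1 (71.1 CPM per kb) and Fis1 (65.9) stood highest, followed by Yme1l1 (42.7), Phb2 (36.7) and Bnip3l (33.7). Most of the other genes lay between 22.8 for Clpp and 4.49 for Afg3l2. The lowest were Ppargc1b (1.99), Bnip3 (1.79), Sirt3 (0.773) and Mtfp1 (0.734). In this order 35 of the 37 steps from a gene to the next lower overlapped in their ranges over the libraries. The 2 clear steps were those below Fis1 and below Bnip3l. Within families the levels were unequal, with Bnip3l far above Bnip3, Phb2 above Phb (14.7), and Mfn2 (9.30) above Mfn1 (5.01). With the longest transcript as the length, Fis1 stood first and Pink1 second, and the next 3 were the same. Lower in the order some genes moved far, with Mff going from rank 28 to 15 and Nrf1 from rank 19 to 9.

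**Figure D3:**
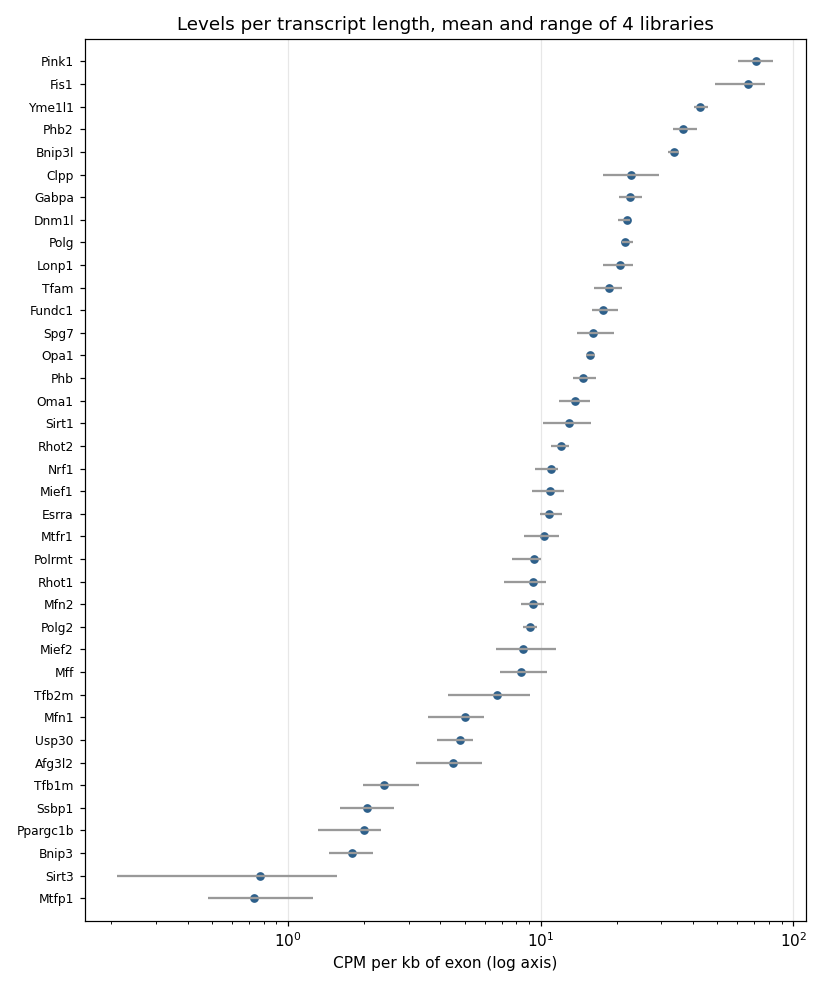
Level of each of the 38 genes per length (x axis, CPM per kb of exon, log axis), with the mean of the 4 libraries as a point and their lowest and highest value as a line. Pink1 and Fis1 stand at the top and Mtfp1 at the bottom, and most neighbours overlap.

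The level also varied between libraries of a genotype. Summed over the 38 genes, the level was 2970 and 2736 CPM in Altre-KO and 2674 and 2752 CPM in Altre-WT, so Altre-KO replicate 1 stood above the other 3 libraries. Altre-KO replicate 1 held the highest value for 18 of the 37 tested genes (48.6%, against 30.7% of all tested genes), and Altre-KO replicate 2 for 7 (18.9%, against 19.2%). The same library had the largest share of reads on listed genes, and the part of that share in these values was not tested. Leaving out Altre-KO replicate 1 lowered the median log2 fold change of the 37 genes to 0.016, and leaving out Altre-KO replicate 2 raised it to 0.15. Pink1 ran from 0.34 to 0.435 over these 4 fits, Mief2 from 0.315 to 0.70 and Tfb2m from 0.34 to 0.86. Afg3l2 stayed below 0, from -0.65 to -0.20. Spg7 ran from 0.16 without Altre-KO replicate 1 to 0.43, Oma1 from 0.11 without Altre-KO replicate 1 to 0.31, and Nrf1 from 0.0021 without Altre-WT replicate 1 to 0.28. In 24 of the 37 genes the sign changed when some single library was left out.

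**Figure D4:**
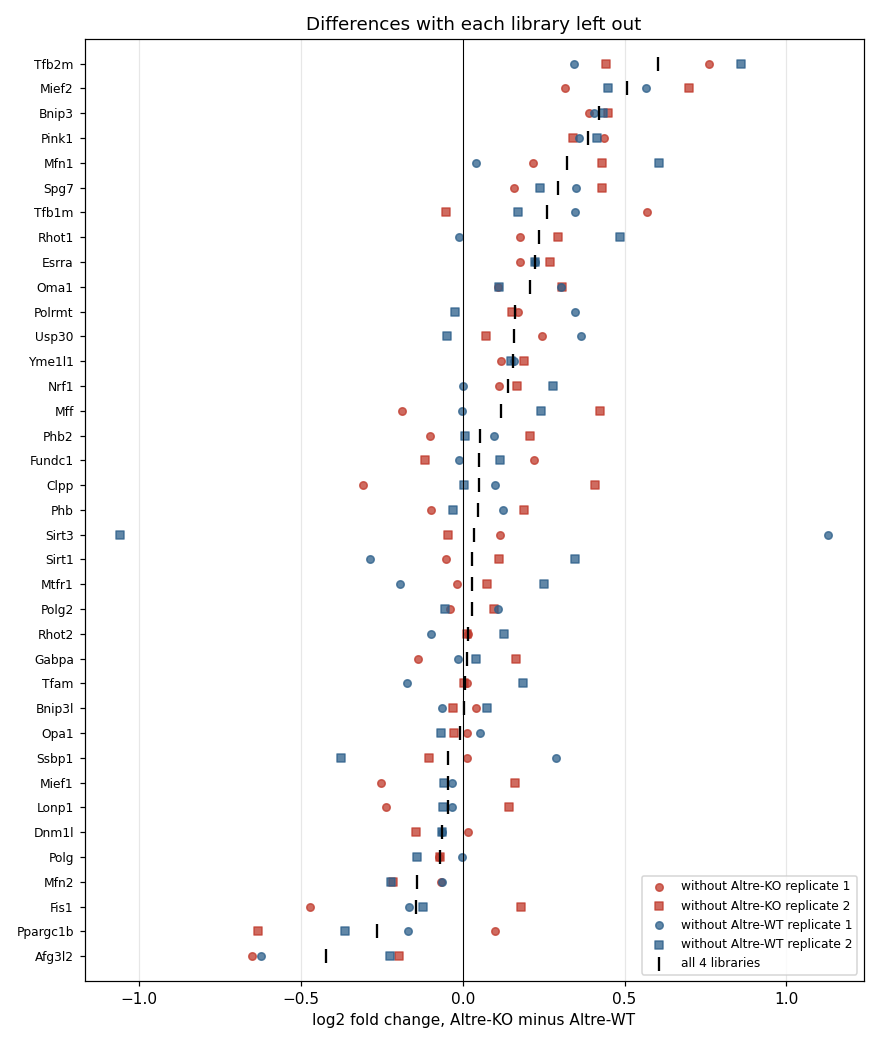
Log2 fold change (x axis, Altre-KO minus Altre-WT) of the 37 tested genes with each library left out in turn, in red for a missing Altre-KO library and blue for a missing Altre-WT library (circle replicate 1, square replicate 2), and with all 4 libraries as a black tick. Pink1, Mief2 and Tfb2m stay right of 0 and Afg3l2 left of it, while Sirt3 runs from -1.06 to 1.13.

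Other genes of the same processes, 108 on lists chosen by function, were read from the same fit. Of the 91 tested, 0 passed an adjusted p of 0.05 in limma, and 3 had an unadjusted p under 0.05 (3.3%, against 3.66% of all tested genes). Their median log2 fold change was 0.008, with 48 above 0 (52.7%, against 47.9% of all tested genes). The genotypes did not overlap for 30.8% of them, the same share as the 30.8% of all tested genes. A log2 fold change of at least 0.3 in size was found for 20 of the 91 (22%, against 28.5% of all tested genes). Among 26 further genes of mitochondrial DNA maintenance, Rrm2b, the ribonucleotide reductase subunit that supplies nucleotides outside S phase, was at 47.1 and 51.6 CPM in Altre-KO and at 64.0 and 77.3 CPM in Altre-WT (log2 fold change -0.50, unadjusted p of 0.0317 and adjusted p of 0.999 in limma). Top1mt, the mitochondrial topoisomerase, was at 11.3 and 13.6 CPM in Altre-KO and at 3.83 and 7.99 CPM in Altre-WT (1.02, unadjusted p of 0.0457 and adjusted p of 0.999 in limma). Among 7 cristae genes, Minos1, a small subunit of the cristae-junction complex, was at 29.4 and 14.0 CPM in Altre-KO and at 38.8 and 33.2 CPM in Altre-WT (-0.79, unadjusted p of 0.0249 and adjusted p of 0.999 in limma). Apool, of the same complex, had a log2 fold change of -0.36.

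Among 14 other genes of protein quality control and the mitochondrial stress response, 11 had a log2 fold change above 0 (47.9% of all tested genes did). Clpx, the unfoldase that feeds Clpp, was at 70.7 and 63.9 CPM in Altre-KO and at 48.1 and 60.1 CPM in Altre-WT. The chaperone Hspa9, with the next smallest p, had a log2 fold change of 0.17. Of 11 other dynamics genes 5 were above 0, with Inf2, an actin nucleator at fission sites, at 0.35 and Letm1 at 0.16. Of 18 other mitophagy genes 9 were above 0, with the receptor Bcl2l13 at -0.30 and the phosphatase Pgam5 at 0.24. Of 15 other regulators 9 were above 0. The sirtuin Sirt4 was at -0.99, on low levels of 4.29 and 0.85 CPM in Altre-KO and 7.11 and 3.78 CPM in Altre-WT. Pprc1 was at -0.48, with 13.78 and 33.45 CPM in Altre-KO and 31.17 and 29.85 CPM in Altre-WT. Its genotypes overlapped, and only Altre-KO replicate 1 was low. None of these passed (limma adjusted p = 0.999 for each named).

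**Figure D5:**
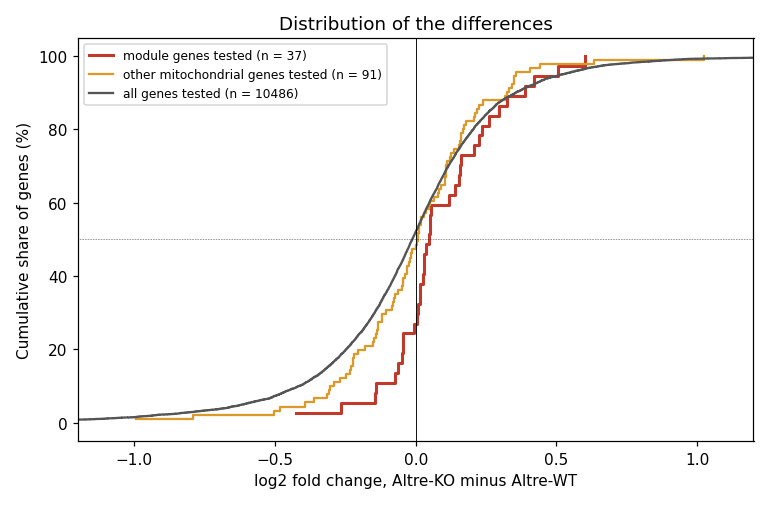
Cumulative share of genes (y axis, percent) by log2 fold change (x axis, Altre-KO minus Altre-WT), for the 37 tested genes described here (red), the 91 other tested mitochondrial genes (orange) and all 10486 tested genes (grey). The red curve crosses 50% at 0.046 and runs from -0.42 to 0.60.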

How the data were processed

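RNA of liver Tregs was measured by sequencing in 4 libraries, 2 per genotype. Per the labels' protocols, RNA came from a micro-scale column kit and libraries from a SMARTER mRNA kit. The submitters' processing notes name build mm10 (GRCm38) and the tools cutadapt, STAR and DESeq2, without roles or versions. No counter or annotation is named. The authors deposited an RPM value per library (reads scaled to a total larger than the listed genes, plus 0.0001, as read from the values) and a CPM value, per the file headers. The authors' deposited table also holds group means, a log2 ratio (knockout over wild type), and p-values of a test the headers do not name.

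The members and lists were chosen with earlier results of these data known. The planned design assumed normalized values, which the files hold. Reads were estimated from the smallest RPM step. Between 92.9% and 93.8% of values above 0 were whole within 0.02 of a read, so they were not treated as counts; among the members only Polg had fractional reads. The main test was limma 3.58.1 (R 4.3.3, trended variance, 20.8 prior degrees of freedom) on log2(CPM + 1), two-sided, with Benjamini-Hochberg adjustment over the 10486 genes with at least 4.22 CPM (10 reads at the median depth) in at least 2 libraries. In simulated data with 200 changed genes among the 10486, the script recovered 21.5% of 1.5-fold changes and 74.1% of 2-fold changes. Every simulated gene had the same dispersion (0.00931), estimated only from genes with a mean above 200 reads. That value may be too low for the real genes, so these shares may be too high for them. Fold changes on this scale understate those of low genes. Members named in full have an unadjusted p under 0.05, or no overlap with an absolute log2 fold change of at least 0.3, and each other list gives its 2 genes with the smallest p.

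The 38 symbols described matched GENCODE M21 names; 1 gene of the list is not reported here. Exon length is the union of annotated exons, which grows with the number of isoforms. Other genes share exonic bases with 15 members, most on the opposite strand. Pseudogenes of at least 95% identity over 300 bases (blastn 2.17.0) were found for Bnip3, Bnip3l, Phb, Ssbp1 and Tfb2m. By symbol, none of these pseudogenes is among the listed genes, and the estimated reads of these members were whole in every library. How shared reads were counted is not known, so the levels of these members are less certain. Mitochondrially encoded genes were not analysed here. Figures were drawn with matplotlib 3.10.9.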

Additional observations from a re-analysis of the deposited data

How the results depend on the processing

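None of the 37 tested members passed in any of the 12 alternatives: pseudocounts of 0.1 and 5, no low-value filter, a mean of at least 20 CPM, median-of-ratios and upper-quartile scaling, limma-voom, the replicate number as a block, and each library left out. The genes past the threshold, 4 in the main test, numbered 2 with a pseudocount of 0.1 and between 6 and 16 with a library left out (14 without Altre-KO replicate 2 and 16 without Altre-WT replicate 2). The cause was not tested. With the replicate block they numbered 6, and the block changed no call among the members. Same-numbered libraries did not deviate together (correlation -0.010 across all tested genes), so the numbers were not taken as pairs.

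The median log2 fold change of the members, 0.046, ran from 0.016 to 0.15 with a library left out (0.15 without Altre-KO replicate 2). In the other alternatives it lay between 0.040 and 0.076, and under both other scalings 28 of the 37 were above 0. Of the 37 members 13 kept their sign in every alternative in which they were tested. The other 24 changed sign, with these ranges when a library was left out: Opa1 -0.068 to 0.054, Dnm1l -0.14 to 0.015, Fis1 -0.47 to 0.18, Mff -0.19 to 0.43, Mief1 -0.25 to 0.16, Mtfr1 -0.20 to 0.25, Bnip3l -0.065 to 0.074, Fundc1 -0.12 to 0.22, Usp30 -0.049 to 0.37, Phb -0.098 to 0.19, Phb2 -0.10 to 0.21, Tfam -0.17 to 0.19, Tfb1m -0.052 to 0.57, Polrmt -0.024 to 0.35, Polg2 -0.055 to 0.11, Ssbp1 -0.38 to 0.29, Gabpa -0.14 to 0.16, Ppargc1b -0.63 to 0.10, Sirt1 -0.29 to 0.35, Sirt3 -1.06 to 1.13, Lonp1 -0.24 to 0.14, Clpp -0.31 to 0.41, Rhot1 -0.012 to 0.48 and Rhot2 -0.10 to 0.13. Opa1 was also at 0.023 with median-of-ratios and 0.010 with upper-quartile scaling, Sirt3 at -0.081 with a pseudocount of 5, and Bnip3l at -0.0035 and Tfam at -0.0094 with limma-voom; these lie close to 0 in the main test too. Depth limits Bnip3, Sirt3 and Mtfp1, each on 17 reads or fewer in every library.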
